A study of Mus musculus with 4 samples.

Results

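A set of 10 genes that build the cornifying epidermis and the inner root sheath of the hair follicle were examined in 4 mammary gland samples. Their products are made in skin, which lies next to the gland. They were Krt1, Krt2, Krt10, Krt25, Krt27, Krt71, Lor, Sbsn, Krtdap and Ivl. These skin genes were chosen with earlier results of these data known. All 10 were on the array, with 13 of its 41174 probes, among 18952 genes named through RefSeq. Total RNA of each gland was hybridised to a one-colour Agilent array that measures RNA by the brightness of its probes. The 2 knockout samples carry a deletion of the stathmin gene, labelled STM KO, and the 2 WT samples have stathmin intact. All 4 come from 13-week-old female mice that carry Δ16HER2, an oncogenic splice form of the receptor HER2, and their glands were taken before tumours formed. The promoter of the transgene is not given in the sources used here. Nothing says that each sample was a separate animal, so the tests below measure only the spread between these samples, and 2 arrays per group limit their precision.

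The epidermis renews itself from a basal layer whose cells move outward and cornify. On that way they switch to the suprabasal keratins and then assemble the cornified envelope, a protein shell cross-linked by transglutaminases. The inner root sheath is the sleeve that moulds a growing hair, and it is made only while a follicle is growing. Its cells fill with keratins of their own and with trichohyalin, a protein that binds them into a stiff mass. Keratins assemble as pairs of a type I and a type II chain, as Krt10 does with Krt1. The mammary gland buds from the same embryonic surface layer as the epidermis and lies directly under the skin, and its basal cells share several keratins with basal keratinocytes.

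The promoters of the 3 inner root sheath keratins are shown first because these genes differed most between arrays, and those of Sbsn and Krtdap because they were measured on every array. Krt25 and Krt27 are type I keratin genes on chromosome 11, with 1 protein-coding gene between them (Krt26). Krt71, a type II keratin gene, lies on chromosome 15, 2 such genes from Krt2. Sbsn and Krtdap lie on chromosome 7 with Dmkn alone between them. The lines give the 250 bases before the RefSeq transcription start (GRCm38.p6), 5′ to 3′ on the gene's strand. Capitals mark TATAAA and AGATAA in the 3 keratin promoters and TGANTCA in the other pair.
Krt25, chr11:99322952-99323201, minus strand: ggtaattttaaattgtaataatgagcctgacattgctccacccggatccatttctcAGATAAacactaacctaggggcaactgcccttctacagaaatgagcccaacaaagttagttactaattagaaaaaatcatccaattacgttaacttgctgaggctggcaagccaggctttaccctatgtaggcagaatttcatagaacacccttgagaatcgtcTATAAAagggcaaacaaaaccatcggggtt
Krt27, chr11:99351119-99351368, minus strand: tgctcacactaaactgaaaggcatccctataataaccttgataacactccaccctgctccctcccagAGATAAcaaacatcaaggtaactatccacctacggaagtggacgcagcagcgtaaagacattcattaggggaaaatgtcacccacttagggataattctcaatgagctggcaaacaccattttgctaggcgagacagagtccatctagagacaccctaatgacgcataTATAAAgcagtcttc
Krt71, chr15:101743098-101743347, minus strand: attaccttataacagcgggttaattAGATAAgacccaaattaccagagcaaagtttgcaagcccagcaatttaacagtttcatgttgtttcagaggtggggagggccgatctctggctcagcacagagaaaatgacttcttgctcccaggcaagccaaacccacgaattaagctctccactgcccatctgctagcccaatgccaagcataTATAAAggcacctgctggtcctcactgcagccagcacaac
Sbsn, chr7:30751221-30751470, plus strand: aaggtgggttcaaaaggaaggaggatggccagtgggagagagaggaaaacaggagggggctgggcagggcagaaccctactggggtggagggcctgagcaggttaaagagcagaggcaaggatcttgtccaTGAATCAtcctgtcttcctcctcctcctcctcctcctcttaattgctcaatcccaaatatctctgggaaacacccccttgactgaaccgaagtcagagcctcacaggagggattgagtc
Krtdap, chr7:30787655-30787904, plus strand: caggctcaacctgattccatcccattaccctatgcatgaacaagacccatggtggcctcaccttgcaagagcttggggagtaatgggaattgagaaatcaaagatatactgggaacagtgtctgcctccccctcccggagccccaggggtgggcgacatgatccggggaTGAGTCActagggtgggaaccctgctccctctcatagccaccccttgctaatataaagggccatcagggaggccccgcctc
Counted from the transcription start, TATAAA, the letters of a TATA box, began at -30 in Krt25, -15 in Krt27 and -40 in Krt71. AGATAA, letters that GATA factors can bind, began at -194 in Krt25, -183 in Krt27 and -225 in Krt71. TGANTCA, the letters of an AP-1 site, began at -119 in Sbsn and -81 in Krtdap. Promoters were given for 9 of the 10 genes, and 8 motifs were searched on both strands. AGATAA was in the promoters of all 5 keratin genes among these 9 and in none of the other 4, against 9.99% of 32851 promoter windows. TGANTCA was in those other 4 (Lor, Ivl, Sbsn and Krtdap) and in none of the keratin promoters, against 6.75% of windows. TATAAA was in 7 of the 9, against 12.4% of windows. TGATAA, which differs from AGATAA in its opening letter only, was in Krt2, Krt27 and Ivl, against 7.94% of windows. CTTTGA was in 2 of the 9 (13.8% of windows) while CTTTGT was in 1 (16.5%). CAGGTG was in 2 (17.2% of windows) while TTTATNG was in 1 (9.81%). The motifs were picked after the values were seen, and a match is a string of letters, not a site shown to be bound.

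A level here is a probe's log2 processed signal after subtraction of the 75th percentile of its array, and a log2 fold change is the knockout mean less the WT mean. The percentile was a signal of 292 on knockout 1, 160 on knockout 2, 191 on WT 1 and 144 on WT 2. A probe is called measured on an array where the scanner's software marked it well above background, as it did for 54 to 65.7% of probes. WT 2 had the lowest share. The mammary label held, since all 11 luminal epithelial markers, such as Krt8, Krt18 and Epcam, were measured on all 4 arrays. So were all 12 skeletal muscle and all 6 adipocyte markers, so the samples held more than epithelium. The brighter probe of Stmn1, the gene deleted in the knockout, had levels of 4.56 and 3.34 on the knockout arrays and 5.59 and 3.59 on the WT arrays. The dimmer one was measured on WT 1 alone, at -1.13. The brighter probe's groups overlapped, where its probe lies relative to the deletion is not given in the sources used here, and groups are called as labelled.

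The 10 skin genes were not all measured. Krt1 and Krt2, keratins of the spinous and upper epidermal layers, and Ivl, which encodes the envelope scaffold involucrin, were not well above background on any array. That is 3 of 10 genes, against 21% of all named genes, and nothing is read from so small a count. The probe of Krt1 had processed signals of 2.52 and 3.83 on the knockout arrays and 2.41 and 2.48 on the WT arrays. The 2 probes of Krt2 had signals of 1.97 to 3.06 on the knockout arrays and 2.46 to 7.42 on the WT arrays. Ivl had 3.73 and 3.4 on the knockout arrays, against 13.6 and 3.49 on the WT arrays. None of these readings gives a level, so no fold is given. The other 7 genes were measured on at least 1 array, with 6 of the 10 genes measured on knockout 1, 6 on knockout 2, 7 on WT 1 and 3 on WT 2. Over all probes the share measured was 59.8% on knockout 1, 65.7% on knockout 2, 62.8% on WT 1 and 54% on WT 2.

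**Figure D1:**
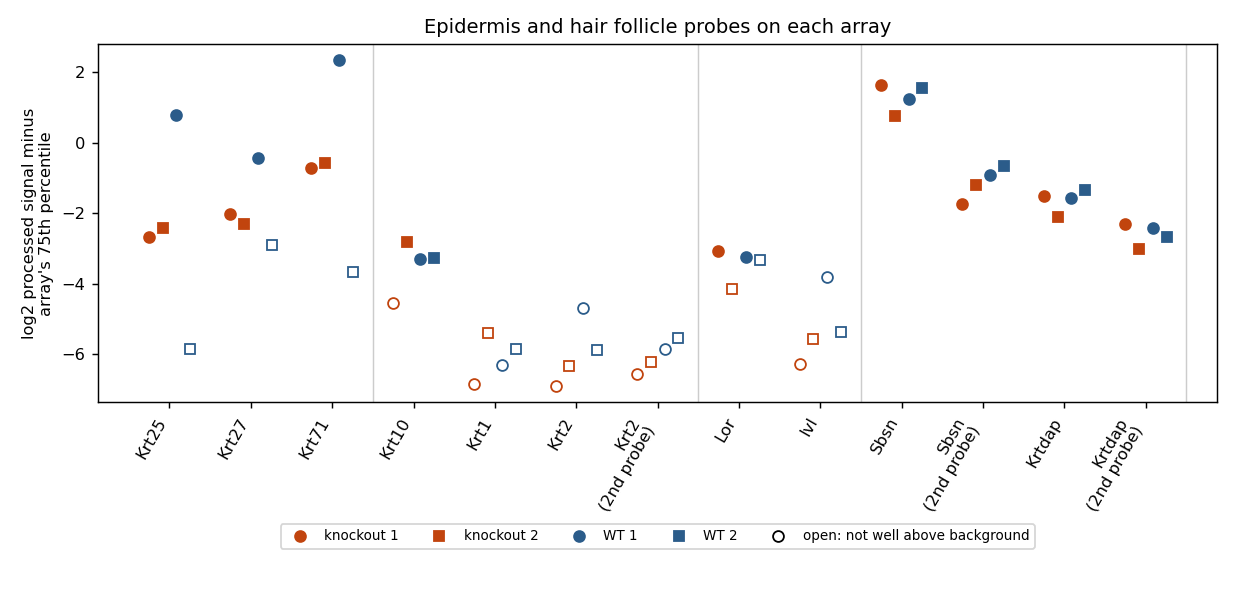
Level of each of the 13 probes (log2 processed signal minus the array's 75th percentile) on the 2 knockout and 2 WT arrays, grouped from left to right as inner root sheath keratins, suprabasal keratins, cornified envelope and secreted proteins. Filled points are well above background and open points are not; for Krt25, Krt27 and Krt71 the knockout arrays lie between WT 1 and WT 2.

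The inner root sheath keratins gave the widest spread of the members, and it lay between the WT arrays, not between genotypes. Krt71 had levels of -0.72 and -0.58 on the knockout arrays, against 2.34 on WT 1 and -3.68 on WT 2. WT 1 was the highest array, WT 2 was not well above background, and both knockout arrays lay between them. Krt25 had -2.68 and -2.42 on the knockout arrays, against 0.79 on WT 1 and -5.86 on WT 2. Krt27 had -2.03 and -2.32 on the knockout arrays, against -0.44 on WT 1 and -2.89 on WT 2. All 3 genes thus had WT 1 highest and WT 2 lowest. The knockout arrays differed by 0.14 to 0.29, with knockout 2 the higher for Krt71 and Krt25 and knockout 1 for Krt27.

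Because WT 2 did not measure these probes, the difference between the WT arrays is given as an approximate lower bound. It sets WT 1 against the higher of the reading on WT 2 and the lowest level measured there (-3.78). For Krt71 and Krt27 the reading on WT 2 was the higher, so their bounds rest on an unmeasured reading. WT 1 was at least 65-fold higher than WT 2 for Krt71, at least 23.8-fold for Krt25 and at least 5.48-fold for Krt27. The mean of the knockout arrays was at least 8.17-fold, 2.35-fold and 1.65-fold above WT 2 for Krt71, Krt25 and Krt27. WT 1 was in turn 7.95-fold, 10.2-fold and 3.33-fold above the knockout mean. Each of these compares single arrays and has no test. Among 13065 tested genes measured on at least 1 WT array, Krt71 had the second largest difference of WT 1 over WT 2 on this bounded scale (6.02), after Calca (6.04). Genes measured on WT 1 but not tested, such as Glycam1 (4.31), were not ranked. Krt25 was at rank 3 (4.57) and Krt27 was at rank 46 (2.45). Over all tested genes this difference had a median of -0.01 and an SD of 0.56. Taken from the readings without a floor it was 6.02 for Krt71, 6.66 for Krt25 and 2.45 for Krt27. With normexp background correction, which added an offset of 50 to every signal, it was 3.29, 2.54 and 1.02.

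The probes of these 3 genes sit at 1 spot each, none with an outlier flag. Their local background was 18 to 21 on knockout 1, 17 to 20 on knockout 2, 21 to 22 on WT 1 and 20 to 21 on WT 2, a narrow range beside that of the signals. The levels stand for whole gland samples, in which more cells of a type and more RNA per cell cannot be told apart.

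The genotype comparison of the inner root sheath keratins was set by which WT array entered it. Krt71 averaged -0.65 ± 0.10 on the knockout arrays and -0.67 ± 4.26 on the WT arrays (SD, n = 2 each), a log2 fold change of 0.02 ± 1.87 (SE, limma adjusted p = 0.999). Without WT 1 that fold change was 3.03, without WT 2 it was -2.99, and with normexp correction it was -0.71. Krt25 averaged -2.55 ± 0.18 on the knockout arrays and -2.53 ± 4.71 on the WT arrays (SD), a log2 fold change of -0.02 ± 2.07 (SE, limma adjusted p = 0.999), or 3.31 without WT 1 and -3.34 without WT 2. The value without WT 1 rests on the unmeasured reading of WT 2, as it does for Krt71 and Krt27. For Krt25 the bound of knockout over WT 2 is at least 2.35-fold. The fold change of Krt25 turned to 0.24 after quantile normalization and was -0.99 with normexp correction. Krt27 averaged -2.17 ± 0.20 on the knockout arrays and -1.67 ± 1.74 on the WT arrays (SD), a log2 fold change of -0.51 ± 0.80 (SE, limma adjusted p = 0.948), or 0.72 without WT 1 and -1.73 without WT 2. All 3 differences were smaller than the spread between the WT arrays.

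Several other genes of the growing follicle also had WT 1 highest and WT 2 lowest. Of 72 further inner root sheath and hair shaft genes, 65 were on the array, 32 were measured on at least 1 array and 33 on none. They were measured unevenly, with 26 on knockout 1, 21 on knockout 2, 24 on WT 1 and 12 on WT 2. Over all probes WT 2 also had the lowest share measured, 54% against 62.8% on WT 1, and its part in these counts was not tested. Tchh, which encodes trichohyalin, had levels of -1.55 and -1.77 on the knockout arrays, against 1.14 on WT 1 and -2.59 on WT 2. Tchh was measured on all 4 arrays, so its WT 1 minus WT 2 difference of 3.74 is a value and not a bound. Krt35, a keratin of the hair cortex, had -1.69 and -2.15 on the knockout arrays, against 0.57 on WT 1 and -6.06 on WT 2, where it was not well above background.

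Krt33a, another keratin of the hair shaft, had -3.06 and -4.03 on the knockout arrays, against -0.67 on WT 1 and -5.37 on WT 2. S100a3, a calcium-binding protein of the hair cuticle, had -2.09 and -2.92 on the knockout arrays, against -0.87 on WT 1 and -3.72 on WT 2. Krtap8-1, one of the proteins in which hair keratins are embedded, had -2.58 and -4.18 on the knockout arrays, against -1.62 on WT 1 and -5.10 on WT 2. Krt33a, S100a3 and Krtap8-1 were named after their values were seen, and none of them was measured on WT 2. They too had WT 1 highest and WT 2 lowest, with knockout 1 above knockout 2 by 0.83 to 1.60.

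In all, 9 of the 21 tested follicle genes had WT 1 highest and WT 2 lowest, the 3 members included, against 6.69% of all 13234 tested genes. Of the 18 tested genes that are not members, 6 had this order, Krtap19-1 being the sixth with a WT 1 minus WT 2 difference of 0.42. A difference of at least 2 on the log2 scale was seen in 8 of the 21 genes and in 0.816% of all tested genes. Of the 21 genes, 11 were measured on all 4 arrays and 9 entered only through the knockout arrays. This order was singled out after the values were seen and is given without a test. The remaining 12 tested follicle genes did not have it. Padi3, an enzyme that modifies trichohyalin, had -1.76 and -2.55 on the knockout arrays, against -0.99 and -2.38 on the WT arrays. Msx2, a homeobox gene that mammary tissue also expresses, had -0.91 and -1.92 on the knockout arrays, against -1.30 and -1.10 on the WT arrays. Krtap4-6, a hair protein gene by its RefSeq name, had 2.88 and 2.57 on the knockout arrays, against 3.48 and 2.84 on the WT arrays.

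**Figure D2:**
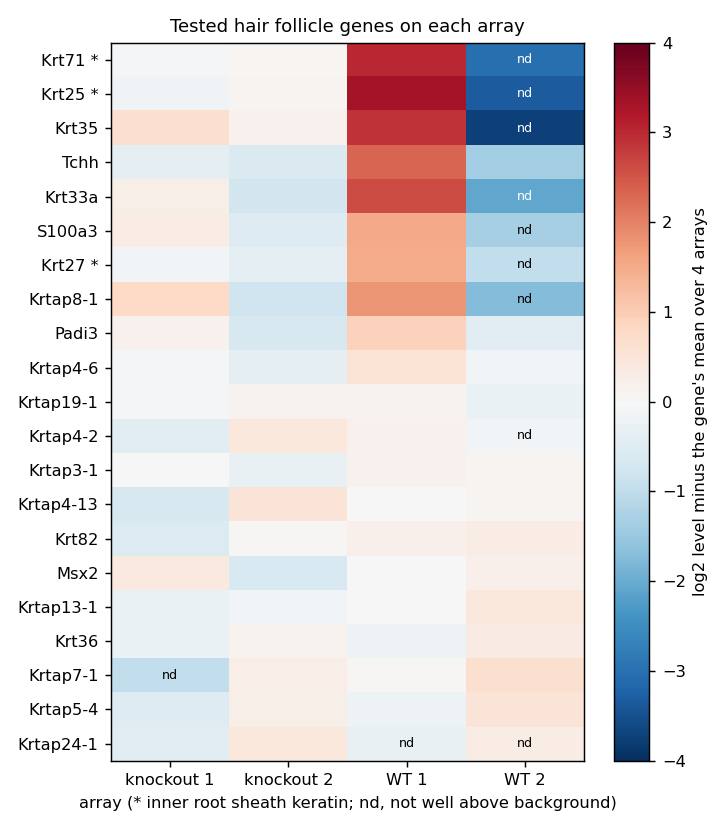
Level of the 21 tested hair follicle genes on each array, as log2 level minus the gene's mean over the 4 arrays (red higher, blue lower), sorted by the difference of WT 1 over WT 2. Krt71, Krt25, Krt35, Tchh, Krt33a, S100a3, Krt27 and Krtap8-1 are red on WT 1 and blue on WT 2, with the knockout arrays between them.

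None of the 18 tested follicle genes that are not members passed the genotype test (limma, 0 of 18 at an adjusted p under 0.05 and 0 at an unadjusted p under 0.05). Their fold changes were positive for 3 and negative for 15, against 50.8% negative over all tested genes. Their median was -0.24, against -0.01 over all tested genes. The largest fold changes of the 18 were Tchh at -0.94 ± 1.18, Krt35 at 0.83 ± 2.06 and the keratin-associated protein gene Krtap7-1 at -0.70 ± 0.48 (SE). Lef1, a factor of hair matrix cells that T lymphocytes also express, was measured on knockout 2 alone on the probe used here, at 0.37, with -4.80 on knockout 1, -3.76 on WT 1 and -4.36 on WT 2. The B cell markers were also highest on knockout 2, with a mean centred level of 3.74 there, -1.79 on knockout 1 and -0.93 and -1.02 on the WT arrays. Their part in the Lef1 reading was not tested.

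The genes closest to the inner root sheath keratins in array profile were Krt35 and Tchh, with genes outside the follicle list also among the nearest. Likeness was the Euclidean distance between centred log2 levels over the 4 arrays, with unmeasured arrays at their floor, and this ranking was added after the values were seen. Krt35 (0.40) and Tchh (0.63) were the nearest of 13228 genes, and S100a3 (1.26) and Krt33a (1.39) were also among the nearest 10. The other 6 of the nearest 10 were H2ac4, Chrdl2, Zic1, H1f5, Nrep and Cxcr4. Of the nearest 100, 5 were in the wider follicle list, which held 18 of the 13228 genes compared. H2ac4 and H1f5 encode histones that dividing cells make. The brighter probe of Mki67, a marker of dividing cells, had levels of 2.24 and 0.61 on the knockout arrays, against 2.80 on WT 1 and 0.49 on WT 2. Its second probe had -0.34 and -1.37 on the knockout arrays, against 0.95 on WT 1 and -1.60 on WT 2. Both Mki67 probes thus had WT 1 highest and WT 2 lowest. The milk gene list had mean centred levels of -1.52 and -1.20 on the knockout arrays, against 1.88 on WT 1 and 0.84 on WT 2. The part of dividing cells and milk-producing cells in the follicle pattern was not tested.

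**Figure D3:**
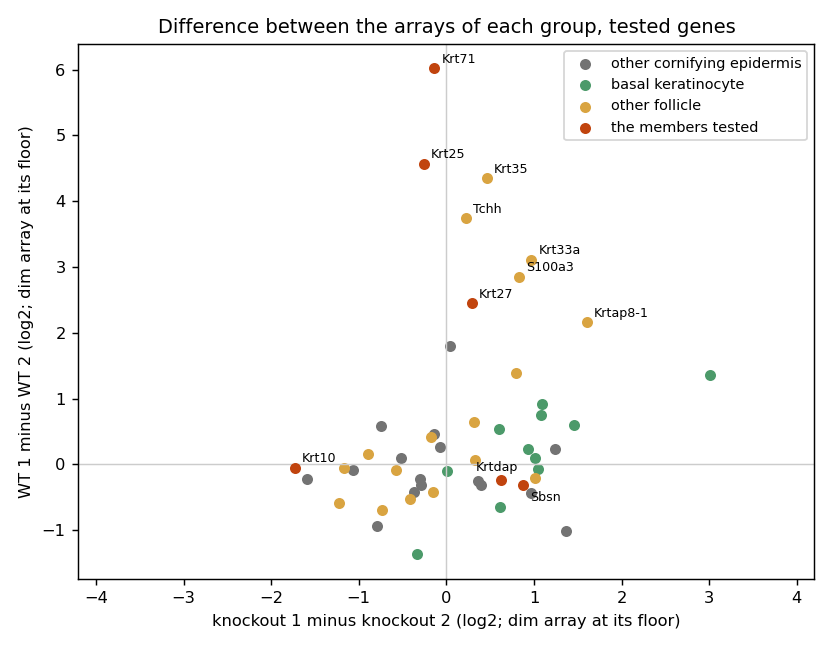
Difference between the WT arrays (vertical) against the difference between the knockout arrays (horizontal), in log2 units with an unmeasured array at its floor, for the tested members, other follicle, other cornifying epidermis and basal keratinocyte genes. Krt71, Krt25 and Krt27 stand at 6.02, 4.57 and 2.45 on the vertical axis and within 0.29 of 0 on the horizontal one, while Krt10, Sbsn and Krtdap lie near 0 on the vertical axis.

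The epidermal members did not share the follicle order. Krt10, the type I keratin of the spinous layer, had -4.54 and -2.81 on the knockout arrays, against -3.31 and -3.26 on the WT arrays. It was measured on 3 arrays, not on knockout 1, and the knockout arrays lay on either side of the WT arrays. Its signals were 12.5 and 22.9 on the knockout arrays and 19.3 and 15.1 on the WT arrays, next to a local background of 16 to 20. Its log2 fold change of -0.39 ± 0.58 (SE, limma adjusted p = 0.945) turned to 0.48 without knockout 1, the array that did not measure it. Lor, which encodes loricrin, the main protein of the cornified envelope, had levels of -3.07 and -4.14 on the knockout arrays, against -3.24 and -3.32 on the WT arrays. It was measured on knockout 1 and WT 1 only, so it was not tested.

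The members measured on all 4 arrays were Sbsn and Krtdap, which encode secreted proteins of differentiating keratinocytes. The brighter Sbsn probe had levels of 1.64 and 0.77 on the knockout arrays, against 1.25 and 1.56 on the WT arrays. The knockout arrays enclosed the WT arrays, and the log2 fold change was -0.21 ± 0.37 (SE, limma adjusted p = 0.956), or 0.23 without knockout 2 and 0.02 with normexp correction. The second Sbsn probe had -1.74 and -1.20 on the knockout arrays, against -0.92 and -0.65 on the WT arrays. Here both knockout arrays lay below both WT arrays, with a log2 fold change of -0.69 ± 0.30 (SE, limma unadjusted p = 0.0681, adjusted p = 0.935). The 2 probes also disagreed on which knockout array was higher.

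Both Krtdap probes had the same higher knockout array. The brighter one had -1.50 and -2.12 on the knockout arrays, against -1.58 and -1.34 on the WT arrays, a log2 fold change of -0.35 ± 0.31 (SE, limma adjusted p = 0.935). The second had -2.30 and -3.02 on the knockout arrays, against -2.43 and -2.67 on the WT arrays, a log2 fold change of -0.11 ± 0.33 (SE, limma adjusted p = 0.973). The groups overlapped on both probes, and knockout 2 was the lowest array on each. Knockout 2 was also lowest for basal keratinocyte genes shared with myoepithelium, whose mean centred level was -0.51 there, 0.45 on knockout 1 and 0.14 and -0.07 on the WT arrays. The luminal epithelial list had -0.48 on knockout 2, 0.17 on knockout 1 and 0.05 and 0.27 on the WT arrays. The part of epithelial content in the Sbsn and Krtdap readings was not tested.

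The genes whose 4 array levels were closest to the mean profile of the brighter Sbsn and Krtdap probes were B4galt4 (distance 0.05), Selenbp2 and Trim16 (0.06 each), Hacd4 (0.08) and Selenbp1 (0.09). All 5 were measured on every array. Their levels spanned under 1 log2 unit over the arrays, as did the brighter Sbsn and Krtdap probes.

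Over all members, no gene passed the genotype test. Of the 10 genes 6 could be tested, that is, measured on both arrays of at least 1 group, and 0 of 6 had an adjusted p under 0.05 or an unadjusted p under 0.05. Over all 24183 tested probes the limma test with Benjamini-Hochberg adjustment called 0 (0%), with a smallest adjusted p of 0.934, and 3.54% of tested genes had an unadjusted p under 0.05. Of the 6, 2 were measured on all arrays, 3 entered only through the knockout arrays (Krt25, Krt27 and Krt71) and 1 only through the WT arrays (Krt10). The fold change was below 0 for 5 of the 6, against 50.8% of all genes, and its median over the 6 was -0.28, against -0.01 over all genes. Leaving out WT 1 moved that median to 0.18 and leaving out WT 2 to -1.05. For none of the 6 genes did the groups separate on the probe that represents it, against 17.7% of genes with both knockout arrays higher and 17.8% with both lower.

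**Figure D4:**
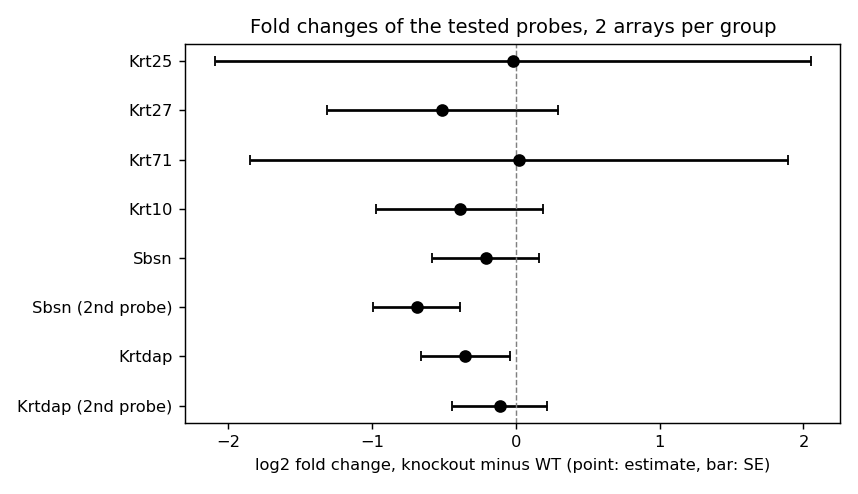
Log2 fold change, knockout minus WT, of the 8 tested probes of the 6 tested genes, with bars of 1 standard error. The bars of Krt25 and Krt71, at 2.07 and 1.87, are several times those of Sbsn and Krtdap, at 0.30 to 0.37, and no probe passed the test.

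The wider set of cornifying epidermis genes was measured thinly. Of 68 listed genes 59 were on the array, 27 of which were measured on no array and 12 on all 4. Of all named genes, 21% were measured on no array. They numbered 18 on knockout 1, 23 on knockout 2, 26 on WT 1 and 16 on WT 2. The genes of this list brightest on all arrays were Dsp and Evpl, which encode the junction and envelope proteins desmoplakin and envoplakin of many epithelia, and Cst6, a protease inhibitor. Dsp had 1.88 and 0.92 on the knockout arrays, against 1.35 and 1.78 on the WT arrays. Evpl had 1.24 and 0.00 on the knockout arrays, against 1.08 and 0.86 on the WT arrays. For Dsp and Evpl, as for Krtdap, knockout 2 was the lowest array. Cst6 had 1.15 and 1.22 on the knockout arrays, against 1.36 and 1.09 on the WT arrays, with WT 2 lowest. Over the tested genes of the list the median of knockout 1 minus knockout 2 was -0.21.

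Of 17 tested genes in that list, the fold change was above 0 for 4 and below 0 for 13 (median -0.20). Over all tested genes it was below 0 for 50.8%. Limma called 0 of the 17 at an adjusted p under 0.05. Of the 17, 12 were measured on all 4 arrays, 3 were tested only because both WT arrays measured them (Flg2, Cnfn and Psapl1) and 2 only through the knockout arrays. The unadjusted limma p was under 0.05 for 4 genes, Calml3, Gsdma, Cnfn and Psapl1, against 3.54% of all tested genes. Both knockout arrays lay below both WT arrays for 7 of the 17 and above them for 1, against 17.8% and 17.7% of all genes. The list was chosen with earlier results of these data known, and nothing is read from these counts. Calml3, a calmodulin-like protein that myoepithelium also makes, had -3.40 and -3.43 on the knockout arrays, against -0.36 and -2.16 on the WT arrays, a log2 fold change of -2.16 ± 0.60 (SE, limma adjusted p = 0.935). Psapl1 was not measured in knockout (-4.45 and -4.21) and had -2.81 and -2.87 on the WT arrays, which put knockout at least 2.8-fold lower (limma adjusted p = 0.935). It entered the test only through the WT arrays, where it is high. Flg2, a filaggrin relative of the cornified layer that also entered only through the WT arrays, had a log2 fold change of -0.94 ± 0.41 (SE).

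**Figure D5:**
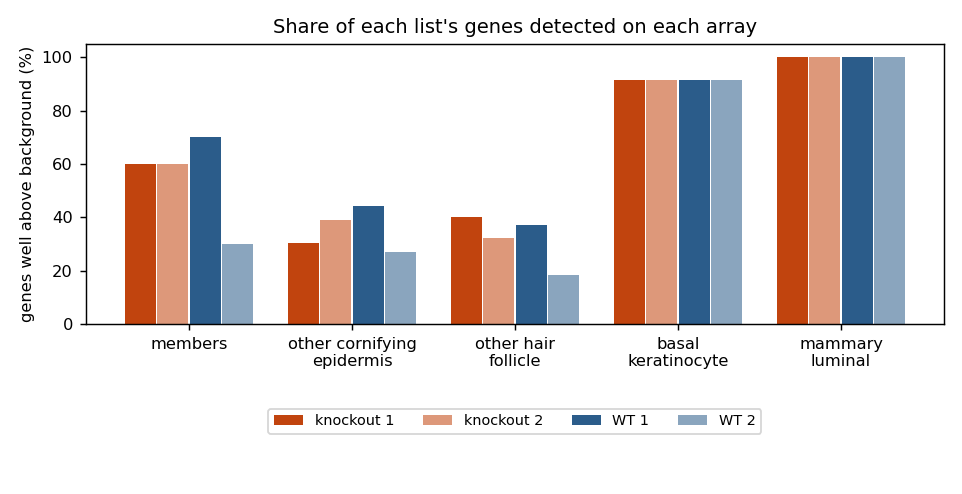
Share of each list's genes on the array that were well above background on each array, in percent, with knockout bars left of WT bars. The members ran from 30% on WT 2 to 70% on WT 1 and the other follicle genes from 18.5% on WT 2 to 40% on knockout 1, while basal keratinocyte genes stood at 91.7% and luminal genes at 100% on every array.

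Markers of other skin structures were measured in part, and several of those measured are also expressed outside skin. Of 6 sebaceous gland genes on the array, 2 were measured, on all 4 arrays: Elovl3, which brown fat also expresses, and Krt79. Krt79, a keratin of the follicle opening and sebaceous duct, had -0.23 and -0.56 on the knockout arrays, against -0.62 and -0.23 on the WT arrays. Of 7 melanocyte genes 3 were measured on at least 1 array. Dct, an enzyme of pigment synthesis, had -0.23 and -0.49 on the knockout arrays, against -0.59 and -0.88 on the WT arrays, a log2 fold change of 0.38 ± 0.26 (SE, limma adjusted p = 0.935). Mitf, the master factor of melanocytes that other cell types also express, was the other one measured on all arrays. The wound keratins Krt6a and Krt16 were measured on no array and Krt6b on WT 1 alone. Krt17, which basal mammary cells also express, had 1.94 and 0.86 on the knockout arrays, against 1.38 and 1.14 on the WT arrays.

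Basal keratinocyte genes shared with myoepithelium were measured on every array for 11 of 12 genes. Krt5, the type II keratin of basal cells, had 3.35 and 2.27 on the knockout arrays, against 3.13 and 2.38 on the WT arrays. The order of arrays for Krt5 put knockout 1 first, unlike that of the inner root sheath keratins. In none of the 11 tested genes of this list was WT 1 highest and WT 2 lowest, against 6.69% of all genes. Nothing is read from so small a count. The list's median WT 1 minus WT 2 difference was 0.24, against -0.01 over all tested genes. Sfn, Perp and Ly6d had log2 fold changes of 0.64 ± 0.40, -0.41 ± 0.38 and 0.39 ± 0.49 (SE), and limma called 0 of the 11 at an adjusted p under 0.05 and 0 at an unadjusted p under 0.05.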

How the data were processed

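The authors deposited the spot intensities of 4 arrays. Their file headers name Feature Extraction 11.5.1.1, while 10.7.3.1 stands in the submitters' processing notes. A further deposited table holds log2 values. Quantile normalization and centring each probe on its median gave the same values (Pearson r at least 0.99999 on every array), which settled scale, centring and direction. Its columns had medians of 0.00626 and -0.0096 for the knockout arrays and -0.018 and 0.0183 for the WT arrays. All arrays lay on 1 slide and in 1 scan, so neither could be tested as a batch. No spot was saturated.

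Log2 processed signals were scaled to each array's 75th percentile over non-control spots, outlier-flagged spots (35 to 73 per array) left out, and spots of a probe averaged. A probe was tested where both knockout or both WT arrays measured it (24183 of 41174); the groups were fitted in limma 3.58.1 (R 4.3.3) without covariates, with Benjamini-Hochberg adjustment and a threshold of 0.05; the fit was tested on simulated data. Accessions were named through RefSeq (GRCm38.p6), which gave 27816 probes 1 gene and left 13358 unnamed; a gene is represented by its brightest tested probe, and every member probe is given. Where a probe was dim on all arrays of 1 group, the fold is a lower bound against the higher of its own reading and the lowest level measured on each array. Most genes outside the 10 were named by a rule (the brightest and largest-fold genes of each list) or are said to be picked after their values were seen. Others, such as Padi3, Lef1 and Mki67, were named outside that rule. The members and lists were chosen with earlier results of these data known.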

Additional observations from a re-analysis of the deposited data

How the results depend on the processing

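The results were recomputed under 15 alternatives. The array order of the follicle genes and the differences between WT arrays were followed through the scalings only after the data were seen. No member passed an adjusted p of 0.05 under any alternative (smallest 0.403). Of 56 member fold changes under alternatives that kept every array, 51 kept their direction. That count says little about robustness. The changed filters, the kept flagged spots and the replicate block could not move a member's fold change. The authors' deposited table in turn repeats quantile normalization. Krt25 turned to 0.24 under quantile normalization and in the authors' deposited table and to 0.16 under median scaling, where the median over all genes was 0.17. Normexp correction was run on median signals, because the files hold no mean signal, and added an offset of 50 to every signal. Such an offset narrows log2 differences between dim readings by construction. Under it Krt71 turned to -0.71 and Sbsn to 0.02, while Krt25 kept its sign but moved from -0.02 to -0.99. The causes were not tested. With 1 array left out, the fold changes ran from -1.25 to 0.48 for Krt10, -3.34 to 3.31 for Krt25, -1.73 to 0.72 for Krt27, -2.99 to 3.03 for Krt71, -0.64 to 0.23 for Sbsn and -0.66 to -0.04 for Krtdap, where the lone array is assumed to vary like the others. The 3.31 of Krt25, the 3.03 of Krt71 and the 0.72 of Krt27 rest on unmeasured readings of WT 2. For Krt25 the bound of knockout over WT 2 is at least 2.35-fold. The list median ran from -1.05 to 0.18 in those fits. Genes past the threshold over the whole array stayed at 0, except that median scaling called 3 lower, none of them a member. The 9 follicle genes with WT 1 highest and WT 2 lowest were 8 under median scaling, where 2.92% of all genes had that order, 6 under normexp (4.2%), and 8 or 9 under the others (6.69% to 7.47%). Krt71, Krt25 and Krt27 were 3.29, 2.54 and 1.02 higher on WT 1 than on WT 2 under normexp, and 6.02, 6.66 and 2.45 higher without it, from readings with no floor.

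The labels do not say whether same-numbered arrays are linked, and their deviations from the group means correlated at 0.0648 over 24183 probes. With the replicate number as a block 0 genes passed, as without it. The list median of -0.28 could not change, since each replicate number holds 1 array of each group. A slide block was not run, there being 1 slide. For Krt1, Krt2, Ivl and Lor the limit is signal over background.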
